A study of Mus musculus with 8 samples.

Results

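The transcriptome described here is that of cortical bone from the 4 WT mouse samples of the series, the libraries numbered replicates 1, 3, 4 and 5, out of 8 samples in all. Members were chosen by their label alone, the 4 WT columns of the deposited count table, and the other 4 samples (Prx1Cre; Piezo1fl/fl) were not used for any value. The WT mice were C57BL/6J, 6 weeks old and without treatment in the labels. Tibial and femoral cortical bone was ground in liquid nitrogen, and total RNA was sequenced by RNA-seq after a TruSeq preparation. The labels do not say whether each library came from 1 animal, which sex the mice were, or whether the WT mice carried a floxed allele or a Cre, so the spread between libraries may be animal to animal, technical or both.

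Cortical bone is the dense shell of long bones. Osteoblasts on its surfaces secrete a matrix made mostly of type I collagen, which then mineralizes. Osteocytes are former osteoblasts buried in that matrix, and osteoclasts are multinucleated cells of the blood lineage that dissolve it with acid and proteases. A ground shaft also carries what adheres to it or runs through it: marrow blood cells, vessels, periosteum, attached muscle and tendon, and growth plate cartilage at the ends. In such bulk RNA, fewer cells of a type and less RNA per cell cannot be told apart.

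Levels are given in CPM, the counts of a gene relative to the total of its library after scaling by the TMM method, which sets libraries level over most genes. The 4 libraries held between 11963536 and 14536106 counts over 19201 genes, and each detected between 18835 and 18975 genes. Of these genes, 36 had no count in any WT library, 14724 had a mean of at least 1 CPM, 1580 of at least 100 CPM and 52 of at least 1000 CPM. Genes are ranked by mean CPM as their share of the counts. Where levels of different genes are compared, RPKM is used, the CPM per kilobase of exon, known for 16450 genes. Chromosomes are those of RefSeq GRCm38.p6.

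A few matrix genes took up a large part of the RNA. Col1a1 (chromosome 11) and Col1a2 (chromosome 6), which encode the chains of type I collagen, and Sparc (chromosome 11), the collagen-binding glycoprotein osteonectin, together held 22.6% ± 1.53 of all counts (SD, n = 4). Col1a1 alone held 9.99% ± 0.742. Its level was 112830, 103620, 91800 and 92029 CPM in replicates 1, 3, 4 and 5, that of Col1a2 108460, 98133, 90592 and 89601 CPM, and that of Sparc 33074, 29939, 27468 and 26894 CPM. All 3 were highest in replicate 1, next in replicate 3 and lower by a similar amount in replicates 4 and 5. With them, chromosome 11 held 19.4% and chromosome 6 held 12.8% of the counts.

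The 10 genes with most counts held 26.2% ± 1.48 of each library, the top 100 held 37.4% ± 1.37, and 478 genes were needed to reach 50%. The composition at the top was shared by the libraries. Of each library's own 30 most counted genes, 25 were common to all 4, as were 89 of the top 100 and 875 of the top 1000. Protein-coding genes held 98.0% of the counts.

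**Figure D1:**
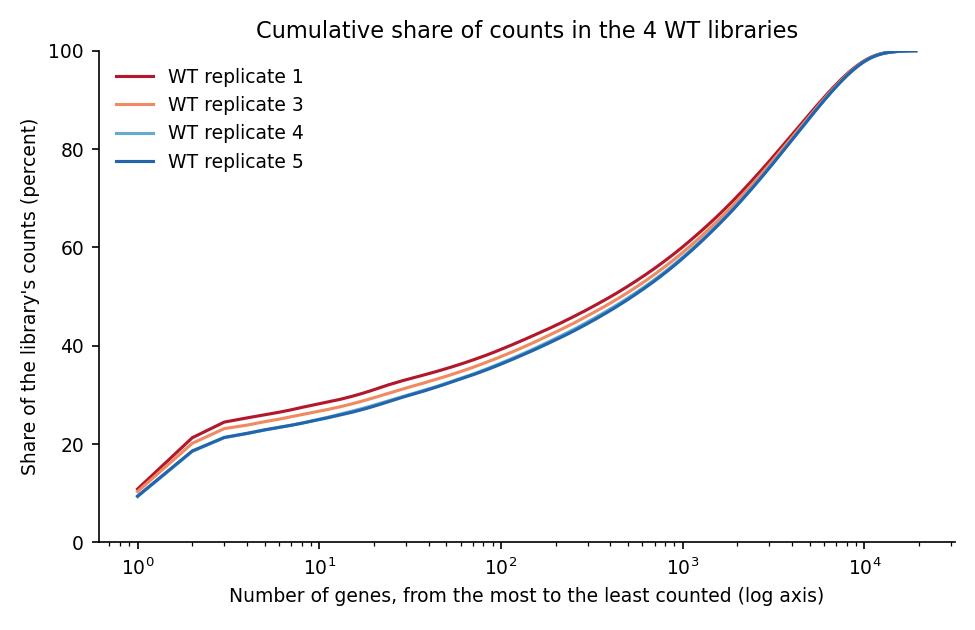
Cumulative share of counts (percent of a library's counts) against the number of genes taken from the most to the least counted (log axis), 1 line per WT library. The lines start between 9.32% and 10.9% at 1 gene and reach between 36.2% and 39.2% at 100 genes, with replicate 1 highest throughout that range.

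The mineral-binding phosphoproteins are secreted acidic proteins that attach cells to mineral and guide its growth. Spp1 (osteopontin) stood at 8837, 7012, 7158 and 6936 CPM, and Ibsp (bone sialoprotein) at 3522, 2266, 2357 and 2217 CPM, both with replicate 1 apart from the other 3. Dmp1, the phosphoprotein of osteocytes, gave 2067, 2106, 2102 and 2083 CPM and hardly differed between libraries, with a coefficient of variation (CV, the SD over the mean) of 0.873%. Mepe was at 354, 246, 225 and 281 CPM. Per kilobase, their means were 4542 RPKM for Spp1, 1253 for Ibsp, 756 for Dmp1 and 164 for Mepe. The family as a whole held 1.24% of the counts.

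Per kilobase, the order changed in part: 18 of the 30 genes with most counts were also among the first 30 by RPKM. Col1a1 remained first with 15248 ± 1545 RPKM, followed by Sparc with 8715 and Col1a2 with 7962 RPKM, and the long collagens dropped back (Col5a2 from rank 7 to 54, Col11a1 from 8 to 58). Short messages moved up. Bglap, which encodes the vitamin K dependent hormone osteocalcin, ranked 13 by CPM and 6 by RPKM (4444 RPKM), and its neighbour Bglap2 ranked 10 by RPKM (2930 RPKM). Bglap and Bglap2 are near-identical copies, so the split of reads between them is uncertain. S100a9, a subunit of neutrophil calprotectin, ranked 8 by RPKM (3681 RPKM) and 27 by CPM.

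**Figure D2:**
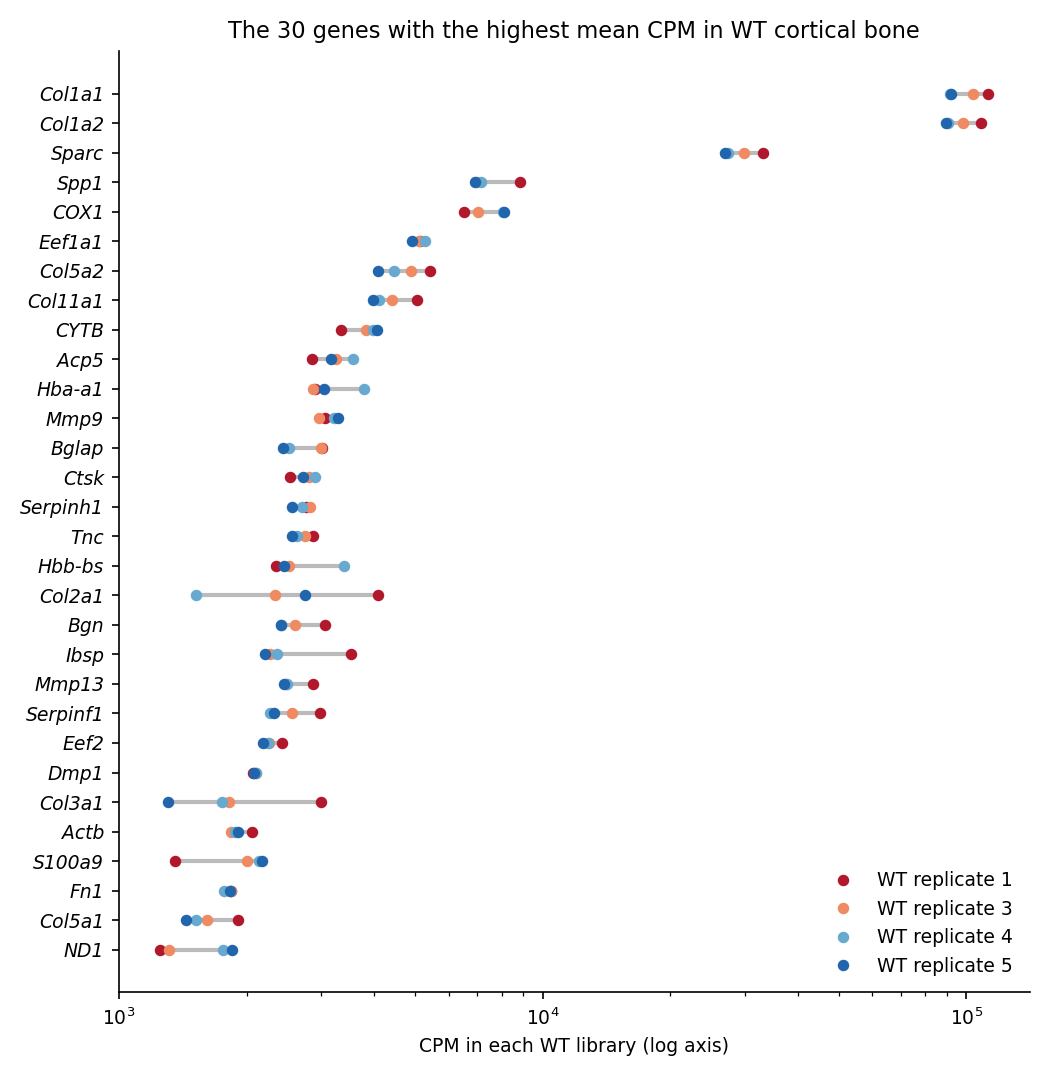
CPM (log axis) of the 30 genes with the highest mean in WT cortical bone, with 1 point per library and a grey bar from the lowest to the highest. Col1a1, Col1a2 and Sparc stand apart from the rest, and the widest bars are those of Col2a1 (1522 to 4093 CPM) and Col3a1 (1306 to 2999 CPM).

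To ask which genes spread more among the WT libraries than others of the same level, the residual deviance of each gene was tested in edgeR against the trend of dispersion with level. Of 14724 genes, 241 (1.64%) varied more than the trend at an adjusted p below 0.05, and 930 had an unadjusted p below 0.05. In 851 genes (5.78%) the highest library exceeded the lowest by over 2-fold, 784 of them between 1 and 10 CPM, where counting error is large. The common biological CV, the spread left after counting error, was 9.24%. Since the labels do not say that the libraries came from separate animals, these p-values measure the spread between the samples, which may be technical. Replicate 1 weighed most: 126 of the 241 genes were highest in it, against 26, 49 and 40 in replicates 3, 4 and 5. Over all 14724 tested genes, replicates 1, 3, 4 and 5 were the highest library in 4854, 3101, 3246 and 3523. Counts of list members highest in a library are to be read beside these numbers, and counts of members called beside the 1.64%. The lists were chosen with earlier results of these data known, so such counts describe the lists and are no independent test. The lowest library was not counted over all tested genes. Among the 241 genes that varied more than the trend it was replicate 1 in 59. Without replicate 1, the biological CV was 6.55%, 126 genes varied more than the trend and 410 exceeded 2-fold.

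Taken in pairs, replicates 4 and 5 were closest, with a biological CV of 5.50%, and replicates 1 and 4 farthest apart, with 12.4%. On the first principal component, which carried 51.1% of the variance, replicate 1 lay at -22.7, replicate 3 at -0.47, replicate 4 at 12.9 and replicate 5 at 10.3. The median CV was 17.5% for genes between 1 and 10 CPM, where counting alone gives 14.9%, and 5.67% between 100 and 1000 CPM, where counting gives 2.23%. Above 1000 CPM the median CV was again larger, 9.42%, with 0.629% from counting.

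**Figure D3:**
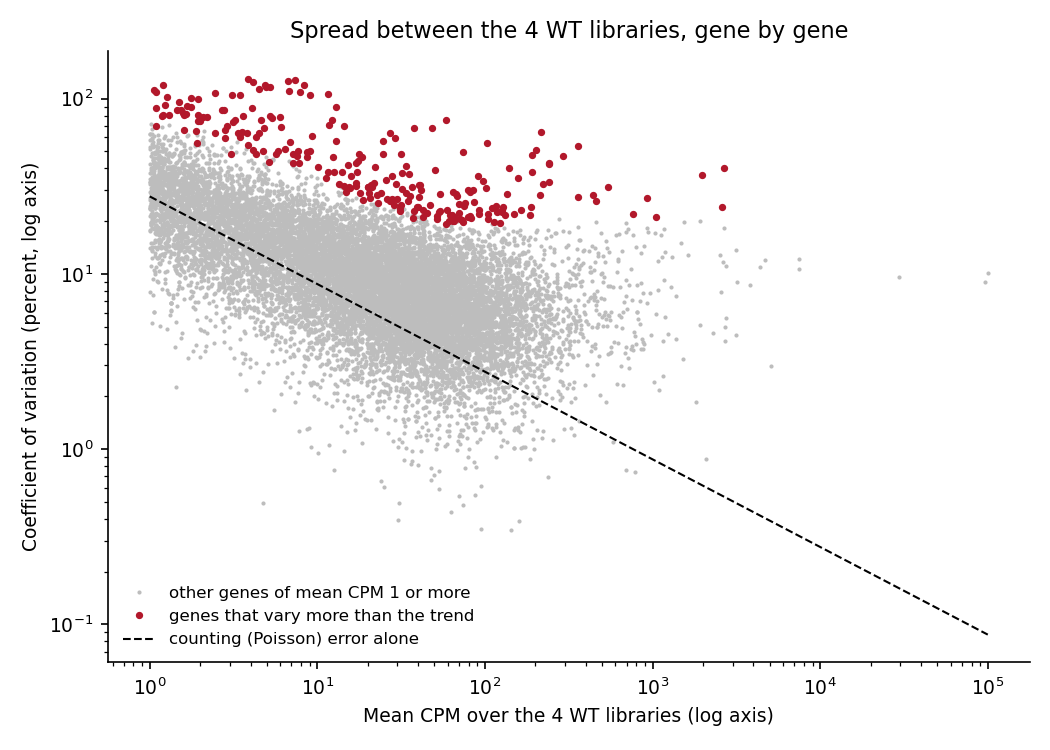
CV between the 4 WT libraries (percent, log axis) against mean CPM (log axis), 1 point per gene of mean CPM 1 or more. Red points are the 241 genes that varied more than the trend, grey points the other genes, and the dashed line the CV that counting error alone would give at the mean library size.

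The collagen family was counted as a whole, by symbol, after the values were seen: 37 of its 42 chains had a mean of at least 1 CPM, and they held 22.1% of the counts. Per kilobase, after type I came Col5a2 (491 RPKM), a type V chain, Col10a1 of hypertrophic cartilage (473 RPKM), the fibril-nucleating Col11a1 (454 RPKM) and the cartilage chain Col2a1 (444 RPKM), which lie close together. The soft tissue chain Col3a1 (234 RPKM) and the type V chain Col5a1 (191 RPKM) followed. The basement membrane chains Col4a1 and Col4a2, found under vessel walls, differed little between libraries (CV 4.10% and 3.84%). The type IX chains, which coat cartilage fibrils, lay between 106 and 382 CPM in all 4 libraries and were highest in replicate 1.

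The machinery that folds and exports procollagen stood high as well. Serpinh1, the collagen chaperone HSP47, was at 2766, 2823, 2706 and 2562 CPM, without a library apart. The elongation factors Eef1a1 (5104 ± 152 CPM) and Eef2 (2280 ± 105 CPM) and the disulfide isomerase P4hb (1046 ± 61.6 CPM) stand beside it in a list of 31 genes for translation and secretion, of which 2 varied more than the trend, Plod2 and Creb3l1. Without replicate 1, 0 of the list passed in edgeR (1 at an unadjusted p below 0.05). Plod2 encodes the lysyl hydroxylase of collagen telopeptides and Creb3l1 a transcription factor of the secretory pathway in osteoblasts. Both were highest in replicate 1, Plod2 with 637, 408, 419 and 374 CPM and Creb3l1 with 256, 172, 169 and 156 CPM.

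Genes of the bone-forming lineage were high. All 21 genes of the osteoblast list averaged at least 1 CPM, as did 14724 of all 19201 genes. Runx2, the master transcription factor of osteoblasts, was at 183, 151, 152 and 161 CPM. Sp7 (osterix), which acts after it, was at 493, 413, 385 and 411 CPM, and Alpl, the phosphatase that frees phosphate for mineral, at 1006, 865, 799 and 745 CPM. In 18 of the 21 genes the highest library was replicate 1. Of the 21, 5 varied more than the trend (against 1.64% of all genes): Car12, Tmem119, Ibsp, Omd and Ifitm5, all highest in replicate 1. Car12, a membrane carbonic anhydrase, differed most, with 188, 77.0, 71.1 and 73.9 CPM. These calls rest on replicate 1 and on the scaling: 0 osteoblast genes passed in edgeR without replicate 1 (2 at an unadjusted p below 0.05), 2 when any other single library was left out, and 1 with scaling to total counts.

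The list of 27 bone matrix proteins, which shares members with the osteoblast list, held 26.9% of the counts and behaved alike. Of its genes, 22 were highest and 1 lowest in replicate 1, and 6 varied more than the trend: Tnn, Col3a1, Omd, Postn, Ifitm5 and Ibsp. Tnn (tenascin W) was at 218, 127, 126 and 85.9 CPM, Col3a1 at 2999, 1818, 1749 and 1306 CPM (adjusted p = 1.48e-06), and Postn (periostin) at 993, 735, 767 and 582 CPM. The highest library of each was replicate 1 and the lowest replicate 5. Without replicate 1 there was 1 such call in the list, without any other library 2 or 3, and with total counts 2.

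The promoters of Ibsp and Bglap are shown because both are high genes of bone cells with the letters of a TATA box just before their start. The letters TATAAA were searched on both strands of the 250 bases before the start in RefSeq (GRCm38.p6). They occur in 14.3% of 27018 gene promoters and in 8.21% of the 10888 found for genes with a mean of at least 1 CPM. Of the 71 promoters found for the 100 genes with the highest mean CPM, 18 hold them. Capitals mark the match, which lies on the opposite strand in Ibsp. The first is chr5:104299037-104299286, plus strand, and the second chr3:88384467-88384716, minus strand.
Ibsp: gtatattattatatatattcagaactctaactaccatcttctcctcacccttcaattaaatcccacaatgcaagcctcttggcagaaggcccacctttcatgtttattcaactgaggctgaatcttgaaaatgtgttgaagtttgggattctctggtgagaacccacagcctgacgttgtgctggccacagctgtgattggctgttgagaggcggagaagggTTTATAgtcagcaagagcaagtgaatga
Bglap: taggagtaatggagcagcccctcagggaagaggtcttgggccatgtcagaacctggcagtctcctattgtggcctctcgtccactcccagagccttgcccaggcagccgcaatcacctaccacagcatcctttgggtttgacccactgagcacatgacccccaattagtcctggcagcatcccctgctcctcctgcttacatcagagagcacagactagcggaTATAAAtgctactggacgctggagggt

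The 17 genes of the osteocyte list were steady as a sum, to which Dmp1 gave the largest part, and less so singly. They summed to 4444, 4191, 4195 and 4346 CPM, and 0 of them varied more than the trend in edgeR. At an unadjusted p below 0.05 there were 4 of the 17, against 930 of 14724 genes, and with the dispersion trend of DESeq2 1, Mepe. Phex, the endopeptidase that restrains phosphate loss, was at 637, 602, 649 and 690 CPM. Sost, whose product sclerostin blocks Wnt signals to osteoblasts, was at 243, 218, 200 and 243 CPM, and Dkk1, another secreted Wnt inhibitor, at 99.6, 87.5, 89.0 and 104 CPM. No library was the highest or the lowest in all of these genes. Fgf23, the phosphate hormone made by osteocytes, was low, at 1.64, 1.22, 1.63 and 0.653 CPM, as was the young osteocyte marker Pdpn at 1.97, 1.29, 1.35 and 1.55 CPM.

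The osteoclast list summed to 10153, 10851, 11572 and 11064 CPM. Of its 18 genes, 0 passed the edgeR test (against 1.64% of all genes) and 0 passed with the DESeq2 trend. At an unadjusted p below 0.05 there were 3, against 930 of 14724 genes. Acp5 (tartrate-resistant acid phosphatase, TRAP) stood at 2854, 3244, 3559 and 3170 CPM. Ctsk, the cathepsin that degrades type I collagen in the resorption pit, was at 2537, 2805, 2896 and 2723 CPM, and Mmp9 at 3062, 2972, 3212 and 3283 CPM. Replicate 1 was lowest for 10 of the 18 genes, and the same share over all tested genes was not counted. Of the acid pump, 16 of 18 vacuolar ATPase subunits in the table, a family picked by symbol after the values were seen, exceeded 1 CPM, and the osteoclast subunit Atp6v0d2 was at 165, 195, 210 and 199 CPM. The fusion receptors Dcstamp and Ocstamp averaged 46.9 and 41.3 CPM, and Calcr, the calcitonin receptor, 6.12 CPM.

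Genes for signals that bone cells send to osteoclasts lay at a range of levels. Tnfsf11 (RANKL), which drives osteoclast formation, was at 15.2, 18.9, 19.1 and 15.6 CPM, or 7.69 RPKM, and its decoy receptor Tnfrsf11b (osteoprotegerin) at 27.4, 16.9, 20.3 and 19.7 CPM, or 7.47 RPKM. Per kilobase the levels lay close together, and neither gene varied more than the trend. Csf1, the survival factor of osteoclast precursors, gave 24.9 RPKM, and Cxcl12, a chemokine on the same list, 113 RPKM. Sema3a, an inhibitor of osteoclast formation, was at 29.0, 31.2, 30.8 and 30.4 CPM, with no library apart. Pthlh had 2 counts in replicate 1, 1 in replicate 5 and 0 in the others, below the minimum of 1 CPM.

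Piezo1, the mechanically gated channel that the series deletes in its other samples, was at 203, 222, 208 and 223 CPM in the WT libraries (214 ± 10.2, SD, n = 4), or 21.6 RPKM. Piezo2, its relative of sensory neurons, was at 16.1, 24.2, 23.3 and 27.3 CPM, or 1.74 RPKM. Neither varied more than the trend (edgeR, adjusted p = 1.00 and 0.256), although replicate 1 was the lowest library for both. Of 17 mechanosensitive channel genes tested, 1 varied more than the trend, and 0 passed in edgeR without replicate 1 (1 at an unadjusted p below 0.05). It was Panx3, a channel of osteoblasts and hypertrophic chondrocytes, with 146, 80.5, 73.4 and 91.4 CPM. The gap junction gene Gja1 (a connexin), through which osteocytes exchange ions, was the highest of the list per kilobase (187 RPKM), Trpv4 gave 9.15 RPKM and Pkd1 10.1 RPKM.

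**Figure D4:**
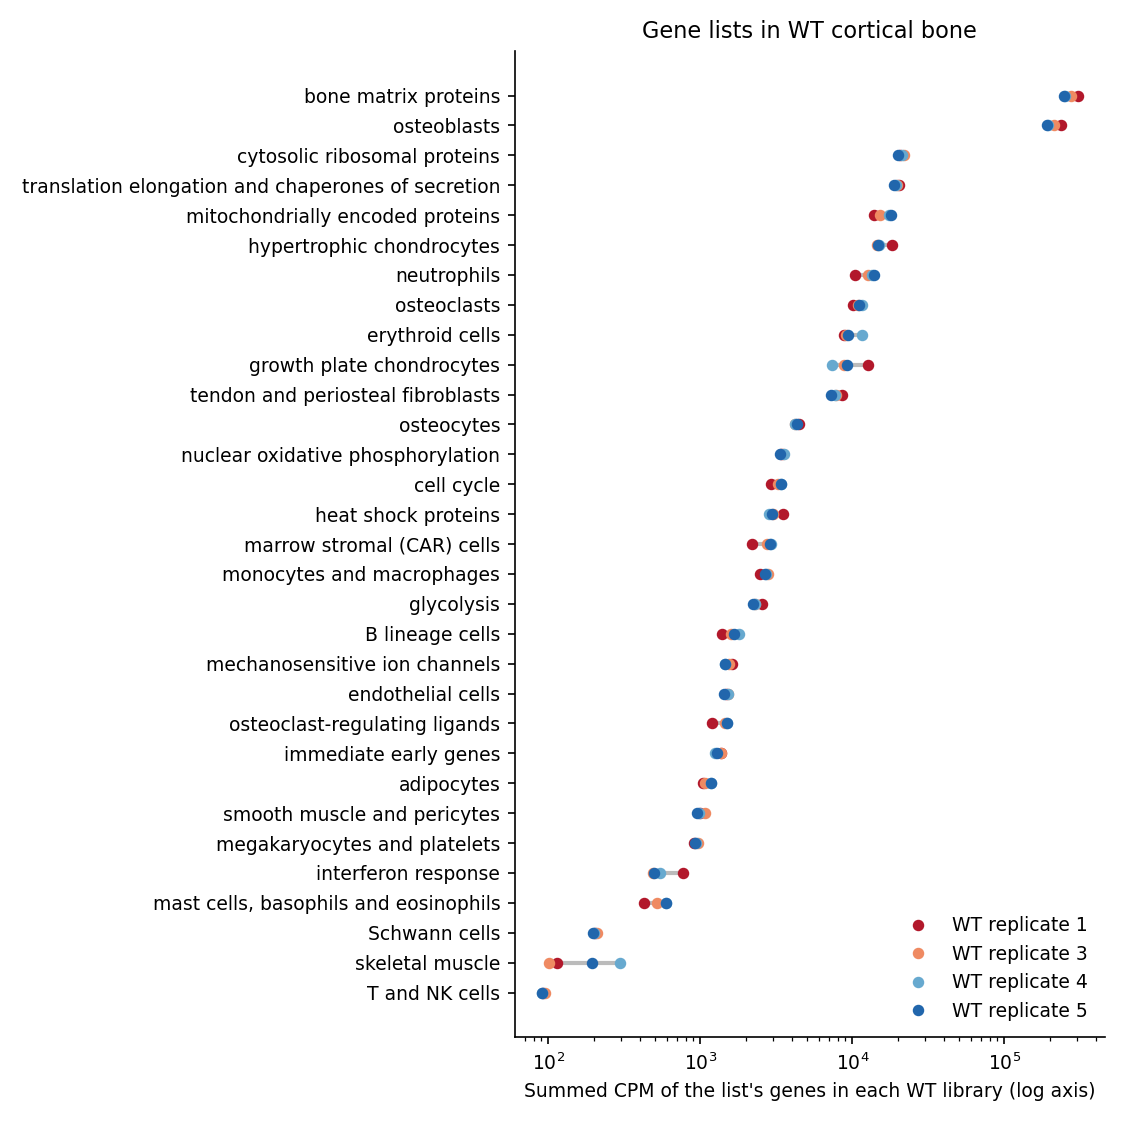
Summed CPM (log axis) of each gene list in the 4 WT libraries, with 1 point per library and a grey bar from the lowest to the highest. Most lists differ little between libraries, and the widest bars are those of skeletal muscle (up to 297 CPM), growth plate chondrocytes (7326 to 12699 CPM) and interferon response (491 to 771 CPM).

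Cartilage RNA was present in every library and varied most among the skeletal lists. Growth plate chondrocytes lay down a matrix of type II collagen and aggrecan before bone replaces it. Col2a1 was at 4093, 2341, 1522 and 2749 CPM (edgeR, adjusted p = 4.73e-09), and Acan, the aggrecan core protein, at 759, 474, 360 and 568 CPM. Both were highest in replicate 1 and lowest in replicate 4, with 3 and 5 between. The same order held in Matn3 (94.1, 29.1, 20.8 and 48.6 CPM), a cartilage matrix adaptor, and in Lect1, also known as chondromodulin, with 121, 37.8, 19.4 and 55.5 CPM, a ratio of 6.24 between the highest and the lowest library.

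Of 22 growth plate genes tested, 16 varied more than the trend, 15 of them highest in replicate 1. The exception was Matn1, highest in replicate 5. The other genes called were Col9a1, Col9a2, Col9a3, Hapln1, Comp, Epyc, Ucma, Clec3a, Chad, Prelp and Scrg1. Between 14 and 15 were called when any single library was left out, 14 of them without replicate 1. Members that did not pass the test included Col11a1 and Col11a2, which also occur outside cartilage, the receptor Fgfr3, and the transcription factors Sox6 and Sox9, the last at 9.73 ± 3.05 CPM. Col10a1, which marks hypertrophic chondrocytes next to the bone front, ran otherwise: 1209, 1411, 1577 and 1729 CPM, lowest in replicate 1, and not past the test (adjusted p = 0.781). Ihh, a signal of prehypertrophic cells, averaged 18.8 CPM.

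Tendon and periosteal genes were highest in replicate 1 as well. Of 12 tested, 11 were highest there and 6 varied more than the trend: Tnmd, Fmod, Thbs4, Cilp2, Comp and Postn. Fmod (fibromodulin), which binds collagen fibrils of tendon, was at 363, 216, 193 and 198 CPM, and Thbs4 at 11.5, 3.12, 3.05 and 3.35 CPM. Tnmd (tenomodulin), the defining tendon marker, was low, with 6.06, 1.22, 1.15 and 2.37 CPM. Kera (keratocan), below the minimum of 1 CPM, had 23 counts in replicate 1 and 0 in the other 3. Without replicate 1, 1 of these calls was made. The part of adhering cartilage or tendon in the other genes that were high in replicate 1 was not tested.

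Skeletal muscle genes were low and followed another pattern. The list summed to 113 CPM in replicate 1, less in replicate 3, 297 CPM in replicate 4 and 194 CPM in replicate 5. Acta1, the actin of skeletal muscle fibres, was at 3.77, 0.532, 27.7 and 14.2 CPM, Ckm (muscle creatine kinase) at 1.39, 0.228, 20.9 and 7.02 CPM, and Myh4, a fast myosin heavy chain, at 0.328, 0, 17.7 and 8.65 CPM. In Acta1, Ckm and Myh4, replicates 4 and 5 were high and replicates 1 and 3 low, with no overlap. This order was read from the values, and its share over all tested genes was not counted. Of 25 tested genes, 16 varied more than the trend (against 1.64% of all genes), 15 of them highest in replicate 4. Tpm2 (58.5, 57.0, 55.7 and 50.7 CPM), the highest of the list per kilobase with 19.1 RPKM, did not follow the order of Acta1, Ckm and Myh4. Neither did some others, among them Tnnt1 (1.80, 2.20, 2.03 and 1.14 CPM), Tnnc1 (1.39, 0.760, 0.948 and 1.06 CPM) and Ttn (7.95, 15.1, 14.8 and 16.3 CPM). The muscle genes lie close to the filter: with a minimum mean of 5 CPM 8 were called, and with the filter of edgeR's filterByExpr 5.

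Blood cell genes were present in all 4 libraries. The erythroid list summed to 8777, 9083, 11583 and 9399 CPM, with most counts from the globins Hba-a1 (2908, 2865, 3793 and 3053 CPM) and Hbb-bs (2347, 2518, 3407 and 2446 CPM). Replicate 4 was highest in 18 of 24 tested genes, against 3246 of all 14724. Of the 24, 2 varied more than the trend, among them Hba-a2. The count was 1 without replicate 4 or without replicate 5, and 0 in edgeR without replicate 3 (7 at an unadjusted p below 0.05). Hba-a1 and Hba-a2 code for the same protein, so their split is uncertain. Hba-a2 was at 339, 483, 367 and 246 CPM, an order unlike that of Hba-a1.

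Replicate 1 was the lowest library for 22 of the 25 neutrophil genes. The same share over all tested genes was not counted, here and for the lists that follow. S100a8 and S100a9 stood at 729, 1071, 1229 and 1154 CPM and at 1354, 2008, 2146 and 2178 CPM. Of the list, S100a8, Retnlg and the protease Ctsg varied more than the trend. The count was 1 without replicate 4, 2 without any other single library and 6 with scaling to total counts. At an unadjusted p below 0.05 there were 14 genes with all libraries and 3 without replicate 1. The DESeq2 trend called S100a9 and Camp and not Ctsg. Ngp and Lyz2, granule proteins of developing neutrophils and of myeloid cells, averaged 1314 and 1194 CPM. B lineage genes were lowest in replicate 1 in 16 of 24 cases, and summed to between 1385 and 1808 CPM. They included both the pre-B genes Vpreb1 (21.5 CPM) and Rag1 (29.1 CPM) and the mature marker Ms4a1 (21.1 CPM). The T and NK cell list summed to between 90.3 and 94.4 CPM, with Cd3e at a mean of 0.603 CPM. Cell cycle genes, led by Mki67 with 600, 697, 737 and 733 CPM, were lowest in replicate 1 in 25 of 30 cases. None varied more than the trend in edgeR or with the DESeq2 trend. At an unadjusted p below 0.05 there were 2, against 930 of 14724 genes.

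The stroma and vessels around the marrow were present at moderate levels. Endothelial genes summed to 1474, 1510, 1510 and 1440 CPM with 0 of 20 past the edgeR test (2 at an unadjusted p below 0.05, 0 with the DESeq2 trend), and the junction genes Pecam1 (150 ± 5.69 CPM) and Cdh5 (140 ± 4.99 CPM) hardly differed between libraries. Cxcl12, the chemokine that holds blood stem cells in marrow, was at 680, 963, 1058 and 1010 CPM, lowest in replicate 1. Igfbp5, a binding protein for insulin-like growth factors, was lowest there by a wider margin, with 260, 495, 466 and 542 CPM (edgeR, adjusted p = 7.48e-06). The adipocyte list summed to 1038, 1065, 1170 and 1182 CPM, most of it from Car3, a carbonic anhydrase (580, 652, 659 and 645 CPM), while Adipoq, the adipokine adiponectin, averaged 31.6 CPM and Plin1, which coats lipid droplets, 1.06 CPM. Of 14 tested, Cfd, Lpl and Scd1 varied more than the trend, each highest in replicate 5. Without replicate 3 there was 1 call, and without replicate 5 there were 0 in edgeR (5 at an unadjusted p below 0.05).

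Interferon response genes, which cells turn on after type I interferon signals, were low and mostly shared their highest library. The lowest was replicate 3 in 9, replicate 4 in 6 and replicate 5 in 9. Of 24 tested, 21 were highest in replicate 1, and 11 varied more than the trend, all of them highest there, among them Oasl2, Irf7, Oas2, Ifit3, Isg15, Ifit1, Zbp1, Gbp3, Bst2 and Ifi27l2a. Oasl2 was at 54.3, 23.7, 27.8 and 21.2 CPM, Isg15, a ubiquitin-like modifier, at 38.2, 19.5, 25.7 and 19.4 CPM, and Irf7, a transcription factor of the response, at 49.6, 26.7, 27.6 and 23.3 CPM. Mx1 (7.05, 7.07, 5.22 and 8.08 CPM) and Rsad2 (81.1, 57.5, 85.1 and 70.4 CPM) were not highest in replicate 1. Without replicate 1, 2 of these calls were made, and 7 with scaling to total counts.

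The sequences before the starts of Isg15, Ifit1 and Ifit3 are shown because these genes were all highest in replicate 1 and hold the letters of the element that interferon factors bind. GAAANNGAA, the core of the interferon-stimulated response element, was searched on both strands of the 250 bases before the start. It occurs in 11 of the 17 interferon genes with a promoter in RefSeq and in 8.18% of all gene promoters. Among genes with a mean of at least 1 CPM the share was 7.63%. Capitals mark every match, and overlapping matches run together. The windows are chr4:156200819-156201068 (minus strand), chr19:34640639-34640888 and chr19:34583279-34583528 (plus strand, where the matches lie on the opposite strand and read TTCNNTTTC). A match is a run of letters and not a shown binding site.
Isg15: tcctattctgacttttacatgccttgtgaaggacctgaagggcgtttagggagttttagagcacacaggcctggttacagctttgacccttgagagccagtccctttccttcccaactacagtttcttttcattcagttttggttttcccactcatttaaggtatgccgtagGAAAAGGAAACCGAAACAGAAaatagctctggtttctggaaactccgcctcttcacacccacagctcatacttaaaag
Ifit1: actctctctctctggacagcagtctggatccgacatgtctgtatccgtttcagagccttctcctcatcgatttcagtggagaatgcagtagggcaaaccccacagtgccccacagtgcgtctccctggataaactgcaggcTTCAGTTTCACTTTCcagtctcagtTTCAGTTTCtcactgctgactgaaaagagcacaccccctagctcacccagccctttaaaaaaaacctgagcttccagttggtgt
Ifit3: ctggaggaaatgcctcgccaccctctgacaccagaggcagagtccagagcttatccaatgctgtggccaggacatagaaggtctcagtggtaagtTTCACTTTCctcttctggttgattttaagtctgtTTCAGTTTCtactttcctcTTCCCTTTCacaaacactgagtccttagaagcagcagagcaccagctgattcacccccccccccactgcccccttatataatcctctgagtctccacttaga

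Some circadian clock genes differed in replicate 1, in both directions, and others did not. The list of 19 genes was drawn up after the values were seen and carries no test. It summed to 484, 500, 439 and 454 CPM, and of its 18 members of at least 1 CPM replicate 1 was highest in 9 and lowest in 4. In the clock, CLOCK and BMAL1 (Arntl) drive the Per and Cry genes, whose products shut them off again, and Nr1d1 (REV-ERB alpha) represses Arntl. Nr1d1 was at 7.21, 33.4, 30.3 and 28.3 CPM and Dbp, a clock output factor, at 13.4, 30.8, 20.6 and 21.8 CPM. Both were lowest in replicate 1. Per2 was at 31.0, 15.7, 11.7 and 15.3 CPM, Per1 at 52.5, 33.7, 35.1 and 25.1 CPM, and Cry1 at 30.6, 14.3, 12.7 and 13.5 CPM, all highest in replicate 1. Clock itself (41.9, 41.0, 46.5 and 45.5 CPM), Bhlhe40 (66.1, 63.1, 53.9 and 60.1 CPM) and Tef (83.6, 94.1, 66.9 and 76.0 CPM) did not set replicate 1 apart. The time of day at which the bones were taken is not given in the labels, and its part in these values was not tested.

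The promoters of Per1 and Cry1 are shown with the letters through which clock factors act, the E-box CACGTG and the D-box TTATGNAA, searched on both strands of the same 250 bases. The E-box letters occur in 5 of 16 clock genes and in 6.86% of all gene promoters, and the D-box letters in 2 of 16 and in 3.63%. Among genes with a mean of at least 1 CPM, the shares were 9.70% for the E-box and 2.27% for the D-box. Capitals mark the matches. In Per1 (chr11:69098699-69098948, plus strand) the E-box starts 166 bases and the D-box 24 bases before the start site. In Cry1 (chr10:85185055-85185304, minus strand) the E-box starts 60 bases before it.
Per1: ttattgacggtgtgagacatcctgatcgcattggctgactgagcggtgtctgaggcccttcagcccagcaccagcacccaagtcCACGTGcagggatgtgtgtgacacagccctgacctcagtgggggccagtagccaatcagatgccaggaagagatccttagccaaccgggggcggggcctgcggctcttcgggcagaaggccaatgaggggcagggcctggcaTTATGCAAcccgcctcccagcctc
Cry1: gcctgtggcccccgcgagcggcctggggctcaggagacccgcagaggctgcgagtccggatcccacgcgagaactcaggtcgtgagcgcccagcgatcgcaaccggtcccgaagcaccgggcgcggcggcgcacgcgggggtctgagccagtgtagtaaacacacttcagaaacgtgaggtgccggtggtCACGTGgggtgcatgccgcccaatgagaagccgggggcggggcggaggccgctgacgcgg

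**Figure D5:**
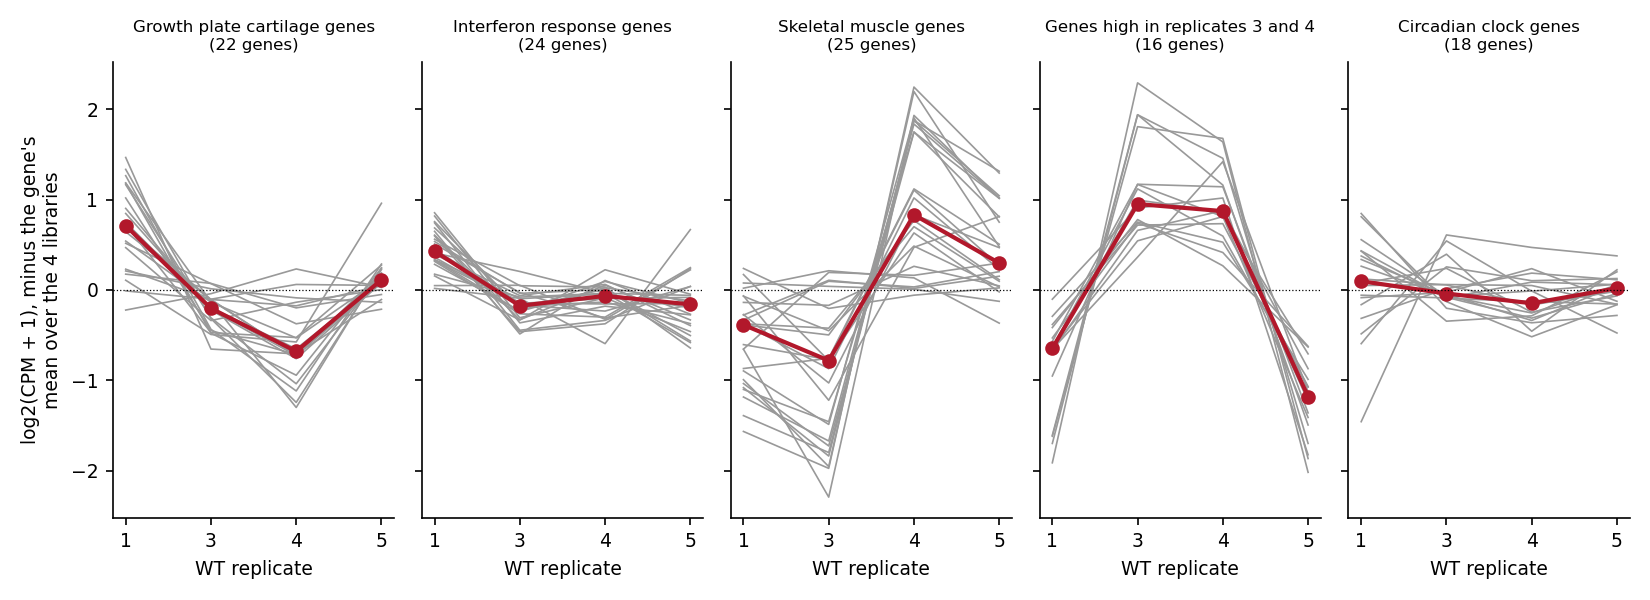
log2(CPM + 1) minus the gene's mean over the 4 WT libraries, for the genes of 4 lists with a mean of at least 1 CPM and for 16 genes picked because they were high in replicates 3 and 4. Grey lines each join the values of 1 gene, red points are the medians, and the libraries have no order: the median of growth plate genes is 0.71 in replicate 1 and -0.68 in replicate 4, and that of muscle genes is 0.83 in replicate 4 and -0.78 in replicate 3.

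Among named genes of at least 10 CPM, the 20 with the largest CV were headed by Acta1, Scrg1, Lect1, Mylpf, Epyc and Matn3. Of the 20, 16 were highest in replicate 1 and 8 belong to the growth plate list. The others included the clock genes Nr1d1, Per2 and Cry1, the osteoblast-list gene Car12, and C1qtnf3, a secreted protein of cartilage, with 45.7, 19.1, 14.0 and 20.2 CPM. Lars2, the mitochondrial leucyl-tRNA synthetase, was at 127, 237, 373 and 433 CPM. It stood apart from the first group, with replicates 4 and 5 high and replicate 1 low. Messages of the mitochondrial genome had the same extremes: they summed to 13828, 15144, 17510 and 17919 CPM, and ND2, a subunit of respiratory complex I, was at 683, 733, 1115 and 1157 CPM. Laptm5, a lysosomal protein of blood cells, ran against them with 21.6, 16.4, 6.77 and 6.69 CPM.

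A set of 16 genes was high in replicates 3 and 4 and low in 1 and 5. It was picked by the test and by this order, so no further test applies. Of the 16, 13 are predicted genes or loci, such as Gm40812 (157, 317, 342 and 46.8 CPM), LOC108169013 (242, 521, 527 and 150 CPM) and Gm6166 (0.573, 16.0, 14.5 and 0.326 CPM). The remaining 3 were Fkbp5, a glucocorticoid-induced chaperone (1.06, 3.19, 7.72 and 0.490 CPM), the zinc transporter Slc39a7 (2.38, 9.42, 8.54 and 1.22 CPM) and Gstp1, a glutathione transferase (2.21, 5.62, 4.67 and 0.979 CPM). The lower of replicates 3 and 4 exceeded the higher of replicates 1 and 5 in each gene, as the choice required.

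At the other end, 10 genes of at least 10 CPM had the smallest CVs, between 0.344% and 0.591%, below the counting error of the same genes (2.18% to 5.03%). They were Snrnp200, Marf1, Ankrd13a, Xpc, Gnaq, Dlg1, Itga2, Slc30a9, Dazap1 and Klhl9. Snrnp200, a helicase of the spliceosome, was at 142, 143, 143 and 143 CPM. Among household groups, 0 of 78 ribosomal protein genes and 0 of 26 nuclear genes of oxidative phosphorylation varied more than the trend. Of 19 glycolysis genes, 0 did. The same numbers came from edgeR and from the DESeq2 trend. Only 1.64% of all genes were called in edgeR, so few calls or 0 would be usual in lists of this size. The numbers at an unadjusted p below 0.05 were 0, 0 and 2, against 930 of 14724 genes. Gapdh, often used as a reference, was listed at only 34.7, 29.6, 29.4 and 28.1 CPM, below Aldoa and Pkm per kilobase (13.5 against 121 and 232 RPKM). Gapdh has many near-identical pseudogenes in the mouse, and how reads that match several places were counted is not given in the sources used here, so its level is uncertain.

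All 21 genes of the osteoblast list and all 17 of the osteocyte list averaged 1 CPM or more. So did 14724 of all 19201 genes and all 25 of the neutrophil list, so this minimum does not test the tissue label. Genes of limb position were picked after the values were seen and are given as levels only. Prrx1, the limb mesenchyme factor whose enhancer drives Prx1Cre, was at 183, 149, 167 and 166 CPM, and the hindlimb factors Pitx1 and Tbx4 averaged 10.1 and 3.18 CPM. Of 30 Hox genes, the highest per kilobase were Hoxc10 (5.89 RPKM), Hoxc6 (4.45 RPKM), Hoxa9 (4.25 RPKM), Hoxa10 (3.86 RPKM) and Hoxb2 (2.84 RPKM).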

How the data were processed

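RNA-seq of cortical bone was measured in the 4 WT samples, grouped by the genotype label. The authors deposited 1 table of raw counts per gene, and its 4 WT columns were used as deposited. The table also holds log2 fold changes, p-values and FDR values of the authors' own comparison, which were not used. HISAT2 and GRCm38 appear in the processing notes of the submitters, while the study's methods describe another alignment (TopHat, mm9) and FPKM values. The read counter, its annotation, its strand setting and its treatment of reads that match several places are not given in the sources used here, so genes with near-identical copies and overlapping or antisense genes are uncertain. Library totals ran from 11963536 to 14536106 counts.

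Counts were scaled by TMM in edgeR 4.0.16 (R 4.3.3). Genes with a mean of at least 1 CPM were tested: a trended dispersion was fitted with an intercept only, and each gene's residual deviance was set against chi-square with 3 degrees of freedom, with Benjamini-Hochberg adjustment over all tested genes and a threshold of 0.05. The code was tested on simulated data. Alternatives were DESeq2 1.42.0 size factors and dispersion trend, total counts, library sizes without the 3 genes with most counts, other filters on low counts, a common dispersion, and leaving out each library. RPKM used exon lengths from GENCODE M1, found for 85.7% of genes. Promoters came from RefSeq GRCm38.p6, and 17877 symbols matched it directly and 654 as a synonym. Figures were drawn with matplotlib 3.10.9.

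The members and lists were chosen with earlier results of these data known. Named genes were the 30 with the highest mean CPM, the 3 highest of each list and members of lists described in full, the 20 with the highest and 10 with the lowest CV among named genes of at least 10 CPM, and a fixed set of channel, collagen and osteoclast-regulating genes. The clock list, the gene families and the limb genes were chosen after their values were seen. A few list members are not reported here.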

Additional observations from a re-analysis of the deposited data

Results flagged for a closer look

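Of 177 values examined, 11 had 1 library standing apart by Dixon's test at the 95% level, which compares its gap to the nearest of the other 3 with the whole range. Chance gives about 1 such value in 20, and 5.50% of all tested genes had a library apart, so the number is near the background and is no result in itself. Replicate 1 was the library apart in 10 of the 11.

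Replicate 1 was high for Spp1 (8837 CPM, others 6936 to 7158), Ibsp (3522 CPM, others 2217 to 2357) and Mmp13 (2875 CPM, others 2447 to 2494). With them it was high for the sum of the hypertrophic chondrocyte list that contains all 3 (18191 CPM, others 14589 to 14905). Of the 9 genes of that list, 7 were highest in replicate 1. Col10a1 (1209 CPM in replicate 1, 1729 CPM in replicate 5) and Ihh (18.9 and 22.9 CPM) were highest in replicate 5. Replicate 1 was also high for Car12 (188 CPM, others 71.1 to 77.0) and for the cartilage gene Scrg1 (30.1 CPM, others 5.89 to 9.47).

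Outside the skeletal genes, replicate 1 was high for Stat2 (65.9 CPM, others 47.2 to 49.5), the chaperone Hsp90ab1 (1199 CPM, others 1013 to 1040) and Cry1 (30.6 CPM, others 12.7 to 14.3). It was low for the stromal receptor Pdgfra (182 CPM, others 207 to 210). Replicate 4 was high for Hbb-bs (3407 CPM, others 2347 to 2518).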

How the results depend on the processing

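The number of genes whose highest library exceeded the lowest by over 2-fold depended on the filter: 851 with a mean of at least 1 CPM, 4305 with no filter on low counts, 125 where the minimum was raised to 5 CPM and 550 with filterByExpr. Genes at low counts make up the difference, as counting error is largest there. Leaving out 1 library at a time gave between 410 and 648 such genes, between 126 and 176 genes that vary more than the trend, and a common biological CV between 6.55% and 10.3%, each lowest without replicate 1. Under the other settings the number of genes that vary more than the trend ran from 162 (DESeq2 dispersion trend) to 280 (common dispersion), against 241. The number of genes with a mean of at least 1 CPM (14702 to 15262), the number of genes that hold 50% of the counts (460 to 502) and the share of the 10 genes with most counts (25.57% to 26.59%) moved little. These results are counts, shares and CVs, which have no sign, so no change of sign was possible. The counts per list under each setting were added after the data were seen, and of these 313 stayed within 1.5 times the value given and 71 did not. The 313 include lists with 0 calls that stayed at 0, so they do not show how steady the calls are. Without replicate 1, calls in the interferon list went from 11 to 2 and those in the growth plate list from 16 to 14. No paired analysis was possible because no groups were compared.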

Other observations

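Extracellular proteases and growth factors, families picked by symbol after the values were seen, are given here as levels. Metalloproteinases summed to 8294 CPM on average. Per kilobase Mmp13 (962 RPKM) and Mmp9 (885 RPKM) were highest, followed by Mmp14 (1431, 1311, 1221 and 1189 CPM), the membrane-bound collagenase, and Mmp2 (1163, 925, 867 and 784 CPM), a gelatinase. Both were highest in replicate 1 and lowest in replicate 5. Among 10 bone morphogenetic proteins by name, Bmp1, which is the procollagen C-proteinase and not a signal of that family, was highest per kilobase with 205 RPKM, at 955, 869, 795 and 795 CPM. The 12 Wnt ligands in the table summed to 120 CPM and the 11 fibroblast growth factors to 63.7 CPM.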
